A study of Rattus norvegicus with 16 samples.

Results

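The matrix metalloproteinases (MMPs), the ADAMTS proteases and their tissue inhibitors (TIMPs) were examined in tissue from rat bone defects. All rows of the count table whose symbol was Mmp, Adamts or Timp followed by the member's number were taken, which gave 37 of 14476 genes: 20 MMPs, 13 ADAMTS and 4 TIMPs. Polyadenylated RNA had been sequenced from 4 Sprague-Dawley rats, whose age and genotype the labels do not give. Each rat had plated osteotomies in both limbs, with a polymethyl methacrylate (PMMA) bone cement spacer in one gap, as in the first stage of the Masquelet technique, and nothing in the gap of the opposite limb. At 4 weeks, 4 tissues were taken from every rat, giving 4 libraries in each of 4 groups. IM was the induced membrane that formed around the spacer, and PFNU (pre-fibrous non-union) was the tissue of the empty gap. PMMA bone was the bone next to the spacer, and BNED was the bone next to the empty defect. The plate and osteotomy were common to all 4 groups, and no intact limb was among the samples, so each contrast is between 2 injured sites of the same animals.

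MMPs are zinc endopeptidases that are made as inactive proenzymes and cut collagens, gelatin, elastin and other matrix proteins. In rodents Mmp13 is the main collagenase of mineralised tissue, Mmp8 is the collagenase stored in neutrophil granules, and Mmp9 is made in large amounts by osteoclasts. On the cell surface, Mmp14 together with Timp2 activates the Mmp2 proenzyme. ADAMTS proteases include enzymes that cleave the proteoglycans aggrecan and versican and enzymes that remove the amino-terminal propeptide of fibrillar procollagens. TIMPs bind active MMPs, and Timp3 also inhibits several ADAMTS enzymes.

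Of the MMP genes in the table, 9 lie side by side in the rat genome. In the RefSeq annotation of build GRCr8 their order on chromosome 8 is Mmp13, Mmp12, Mmp3, Mmp1, Mmp10, Mmp8, Mmp27, Mmp20 and Mmp7, and the only other coding gene among them is Mmp1b, which was not analysed here. Promoter sequences from RefSeq (GRCr8) were matched for 28 of the 37 members. An AP-1 motif (TGACTCA or TGAGTCA, the 2 strands of one site) stood within 250 bases before the start in 6 of these 28 promoters, against 4.05% of 33469 rat promoters. All 6 genes (Mmp1, Mmp3, Mmp7, Mmp10, Mmp12 and Mmp13) belong to the cluster. The same 6 promoters also held TATAAA on the gene's strand, which 8.06% of promoters contained, and 0.4% of promoters held both motifs. The windows below are shown because the genes are neighbours and most share this layout. Their levels differed between tissues in different directions, and a link between layout and level was not tested. Each is the 110 bases before the start on the plus strand, 5′ to 3′, with the AP-1 motif and the nearest TATAAA in capitals.
Mmp13 (chr8:12782719-12782828): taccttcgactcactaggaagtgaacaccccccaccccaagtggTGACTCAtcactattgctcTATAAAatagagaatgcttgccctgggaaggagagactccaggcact
Mmp12 (chr8:12866542-12866651): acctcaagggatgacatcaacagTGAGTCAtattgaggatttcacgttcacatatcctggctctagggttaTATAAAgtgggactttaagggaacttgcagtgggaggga
Mmp3 (chr8:12925171-12925280): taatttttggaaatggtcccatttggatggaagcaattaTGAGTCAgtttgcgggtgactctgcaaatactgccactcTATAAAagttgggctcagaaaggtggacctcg
Mmp10 (chr8:12974597-12974706): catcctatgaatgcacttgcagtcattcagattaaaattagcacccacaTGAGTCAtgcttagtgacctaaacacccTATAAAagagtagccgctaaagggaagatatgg
Mmp8 (chr8:13008780-13008889): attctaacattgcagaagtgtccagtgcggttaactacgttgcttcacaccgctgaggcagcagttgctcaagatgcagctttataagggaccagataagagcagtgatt
Mmp7 (chr8:13132933-13133042): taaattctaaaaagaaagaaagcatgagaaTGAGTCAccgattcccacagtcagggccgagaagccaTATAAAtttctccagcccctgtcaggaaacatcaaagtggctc
The AP-1 motif began 66 bases before the start in Mmp13, 87 in Mmp12, 71 in Mmp3, 61 in Mmp10 and 80 in Mmp7. The Mmp8 window held neither string. A match describes letters in a window and is not a measured binding site.

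Libraries held 40472228 to 76815879 counts. Of the 37 members, 34 passed a filter on low counts and were tested. Mmp1, the gene named for interstitial collagenase, Mmp20 and Mmp21 did not pass, and the highest Mmp1 count in any library was 8. Mmp27 passed through defect tissue alone, with 3 IM and 3 PFNU libraries over the filter's cutoff and no bone library, so its difference between defect and bone was in part set by the filter. Adamts19 was over the cutoff in 4 IM, 4 PFNU and 3 BNED libraries and in 0 PMMA bone libraries. The filter needed 4 libraries, so Adamts19 also passed only through defect tissue. Its difference between defect and bone was likewise in part set by the filter. Levels are in CPM, reads scaled to a common library size with TMM factors, which correct for library composition. They are not divided by transcript length and are therefore compared only between samples of one gene. A gene was called at an edgeR adjusted p under 0.05, with adjustment over all 12857 genes tested. Markers of bone cells were lower in defect tissue, with overlap: the summed level of 7 osteoblast and osteocyte markers was 7056 to 8249 CPM in PMMA bone and 2187 to 6206 in BNED, against 40.5 to 3365 in IM and 275 to 2032 in PFNU. Skeletal muscle RNA was present in all groups, with 9 muscle markers summing to 17213 to 251959 CPM in IM, 44512 to 141081 in PFNU, 1345 to 8470.1 in PMMA bone and 2731 to 27622 in BNED, where rats 1 and 2 were above the lowest membrane. One bone library stood apart: 7 erythroid markers summed to 5638 CPM in PMMA bone of rat 1, against 260.2 to 868 in the other PMMA bone libraries and 2748 to 4624 in BNED.

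**Figure D1:**
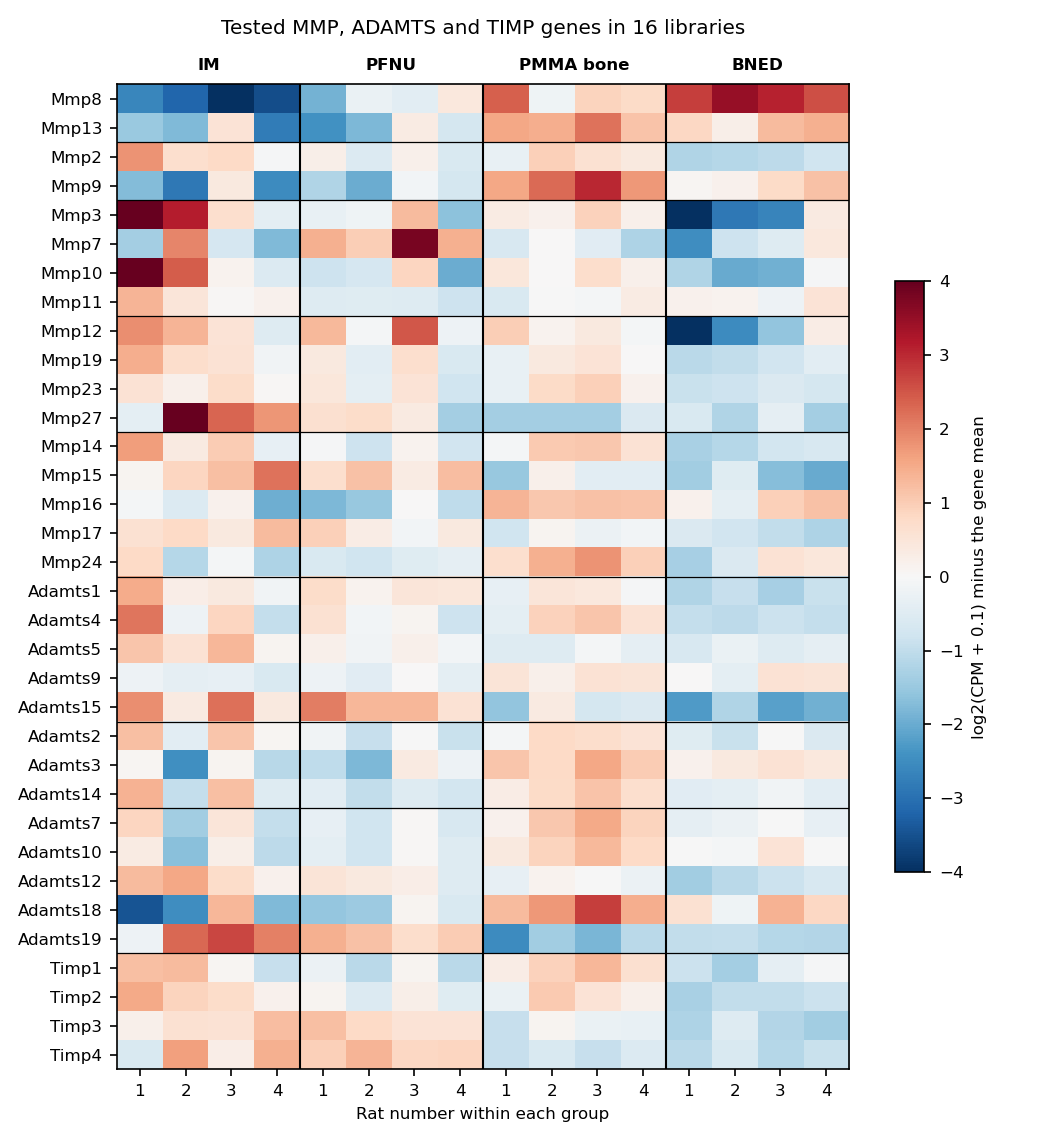
Level of the 34 tested genes in the 16 libraries, as log2(CPM + 0.1) minus the gene's mean over all libraries (colour, cut at -4 and 4), with rows ordered by role and columns by group and rat. Mmp8 runs from lowest in IM to highest in BNED, Mmp9 and Mmp13 are highest in PMMA bone of rat 3, and Mmp3 and Mmp10 are highest in IM of rats 1 and 2.

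Between the induced membrane and the empty-defect tissue, 1 of the 34 tested genes differed. This was Mmp8, the neutrophil collagenase, which was lower in the membrane. Called genes made up 2.94% of the members and 0.863% of all genes tested. Of the 34 differences, 25 were positive (higher in the membrane) and 9 were negative, with a median log2 fold change of 0.47 against 0.01 over all genes. Without adjustment, 14 members had a p under 0.05. The share of all genes at that level is not given here, so this count is not read as particular to the members. DESeq2 also called Mmp10, Mmp11, Adamts5 and Timp2, all higher in the membrane, and limma-voom called no member. Of all genes, DESeq2 called 322 higher and 241 lower. Limma-voom called 0 in either direction, so its lack of calls is not particular to the members.

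Mmp8 stood at 1.02, 0.669, 0.2504 and 0.494 CPM in IM of rats 1 to 4 and at 1.75, 5.57, 4.98 and 9.13 CPM in PFNU. Every membrane library was below every PFNU library, a separation in this direction that 3.31% of all genes showed. The difference (-3.13 on the log2 scale, SE 0.59, adjusted p = 0.0266) was negative in 4 of 4 rats. It lost its call without IM of rat 2 or without PFNU of rat 2, 3 or 4, and the adjusted p ranged from 0.0104 to 0.0947 when single libraries were left out. With rat as a block, Mmp8 had an adjusted p of 0.0511. Neutrophil markers moved with it: 7 of 8 had a negative fold change, 3 of them called, and the 8 summed to 15.8 to 42.5 CPM in IM and 32.8 to 108 in PFNU, with none at 0 throughout a group. Markers of other blood and marrow cells also had negative values: all 6 B cell markers had negative fold changes, 5 of them called, with sums of 3.397 to 6.02 CPM in IM and 16.01 to 74.01 in PFNU, and all 7 erythroid markers had negative fold changes, none called, with sums of 9.23 to 39.1 CPM and 44.3 to 293 CPM. The part of these cells in the Mmp8 difference was not tested, and in bulk tissue fewer cells of a type cannot be told apart from less RNA per cell.

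The other collagenase, Mmp13, stood at 390.3, 318, 1584 and 156 CPM in IM and 202, 316, 1358 and 675 CPM in PFNU (-0.06 on the log2 scale, SE 0.65, adjusted p = 0.985). Both groups spanned a wide range, with rat 3 highest in each. Among the gelatinases, which cut denatured collagen, Mmp9 behaved in the same way. It measured 118, 54.1, 513 and 69.3 CPM in IM and 169.8, 99.3, 368 and 241 CPM in PFNU, again with rat 3 highest in both (-0.22 on the log2 scale, SE 0.62, adjusted p = 0.914). Markers of osteoclasts were also highest in rat 3 in both tissues: 5 markers summed to 3619 CPM in IM of rat 3 and 657 to 1508 in the other membranes, and to 2267 CPM in PFNU of rat 3. The 7 osteoblast and osteocyte markers were highest in rat 3 in both tissues too, summing to 3365 CPM in IM and 2032 CPM in PFNU. The part of these cell types in the Mmp9 and Mmp13 levels was not tested. The gelatinase Mmp2, by contrast, was higher in IM than in PFNU of the same rat in 4 of 4 rats, at 3035, 1391, 1499 and 839.7 CPM in IM and 1030.2, 594, 1002 and 569 CPM in PFNU. The groups overlapped and the gene was not called (1.08 on the log2 scale, SE 0.36, adjusted p = 0.167).

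Among the stromelysins, which degrade proteoglycans and activate other proMMPs, Mmp3 and Mmp10 had the 2 largest positive fold changes of the 34 members and varied widely between rats. Mmp3 (stromelysin-1) stood at 660.5, 169, 30.02 and 14.5 CPM in IM and 15.6, 16.9, 45.4 and 6.02 CPM in PFNU. Mmp10 (stromelysin-2) followed the same order of rats in the membrane, at 83.6, 21.2, 4.28 and 2.59 CPM, with 2.12, 2.395, 7.102 and 0.887 CPM in PFNU. Membranes of rats 1 and 2 were above all PFNU libraries in both genes, and those of rats 3 and 4 lay within the PFNU range. Neither was called (Mmp3 at 3.38 on the log2 scale, SE 1.14, adjusted p = 0.167, and Mmp10 at 3.16 on the log2 scale, SE 0.93, adjusted p = 0.117), although Mmp10 passed the threshold without IM of rat 4. The symbols belong to close relatives, and the sharing of reads between them was not tested. Mmp11 (stromelysin-3, activated inside the cell by furin) was the only member whose IM libraries all lay above all PFNU libraries, which 3.96% of genes did. It measured 21.3, 11.5, 8.47 and 9.36 CPM in IM against 5.798, 5.84, 5.71 and 4.55 CPM in PFNU (1.21 on the log2 scale, SE 0.29, adjusted p = 0.06497). It passed the threshold without IM of rat 3, IM of rat 4 or PMMA bone of rat 1, but not with all libraries, and with rat as a block its adjusted p was 0.132. Mmp7 (matrilysin) went the other way in 3 of 4 rats, with 0.345, 4.28, 0.616 and 0.237 CPM in IM and 2.94, 2.18, 15.8 and 2.94 CPM in PFNU (-2.11 on the log2 scale, SE 0.92, adjusted p = 0.2901).

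Of the remaining MMPs, Mmp12, the macrophage elastase, stood at 329, 237, 135 and 64.2 CPM in IM and 224, 87.6, 518 and 79.9 CPM in PFNU, with overlap (-0.25 on the log2 scale, SE 0.79, adjusted p = 0.925). Mmp19, Mmp23 and Mmp27 had positive fold changes and were not called. All 5 membrane-type MMPs had positive fold changes, from 0.37 (Mmp17) to 1.17 (Mmp14), and none was called. Mmp14, the cell-surface collagenase that activates proMmp2, was higher in IM in 4 of 4 rats, at 1459.9, 590.2, 923 and 367 CPM against 445, 259, 504 and 272 CPM (1.17 on the log2 scale, SE 0.39, adjusted p = 0.159).

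No ADAMTS gene was called between IM and PFNU, and 11 of 13 had positive fold changes. Among the proteoglycan-cleaving members, Adamts5 (aggrecanase-2) was the most separated, at 26.7, 18.3, 31.4 and 13.3 CPM in IM and 14.2, 11.1, 14.2 and 11.3 CPM in PFNU. Only the membrane of rat 4 lay within the PFNU range (0.82 on the log2 scale, SE 0.23, adjusted p = 0.106), and without that library the gene was called. Adamts4 (aggrecanase-1) stood at 87.99, 17.3, 36.4 and 10.1 CPM in IM and 30.1, 18.3, 21.5 and 11.2 CPM in PFNU, and Adamts1 at 135, 58.4, 63.9 and 44.2 CPM and 80.2, 54.04, 67.8 and 66.6 CPM. In both the groups overlapped (adjusted p = 0.4295 and 0.847). Of the 3 procollagen N-proteinases, Adamts2 was higher in IM in 4 of 4 rats, at 191, 61.4, 177 and 86.8 CPM against 75.4, 43.4, 81.8 and 44.5 CPM (1.07 on the log2 scale, SE 0.35, adjusted p = 0.155). Adamts14 was also higher in 4 of 4 rats (1.26 on the log2 scale, SE 0.40, adjusted p = 0.149), while Adamts3 had a fold change near 0 (-0.09 on the log2 scale, SE 0.51).

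None of the 4 inhibitors was called. Timp1 stood at 411, 429, 190.0 and 93.5 CPM in IM and 153, 85.3, 194 and 84.7 CPM in PFNU. Timp2 stood at 1277, 826, 737 and 501 CPM in IM and 477, 305, 526 and 318 CPM in PFNU, higher in IM in 4 of 4 rats, with only the membrane of rat 4 inside the PFNU range. Their log2 fold changes were 1.12 (SE 0.44, adjusted p = 0.236) and 1.04 (SE 0.31, adjusted p = 0.127). Timp3 measured 103, 134, 132 and 210.2 CPM in IM and 203, 153, 131 and 130.1 CPM in PFNU, and Timp4 measured 9.25, 44.01, 17.02 and 37.9 CPM in IM and 27.2, 36.05, 25.1 and 25.3 CPM in PFNU. Both overlapped, with log2 fold changes of -0.09 (SE 0.27) and -0.07 (SE 0.35). The 6 fibroblast markers, which were not called, all had positive fold changes in this comparison and summed to 13102 to 32414 CPM in IM and 7480.3 to 16847 in PFNU. All 6 macrophage markers were also positive, with sums of 1511 to 2653 CPM and 694 to 1581 CPM, as were all 5 tested chondrocyte markers, and none of these was called. Of 9 skeletal muscle markers 6 were positive and 3 negative, with 2 called, both lower in IM. They summed to 17213, 33515, 164385 and 251959 CPM in IM of rats 1 to 4, so the membrane of rat 4 held the most. In PFNU they summed to 44512 to 141081 CPM. The part of these cell types in the values of Mmp2, Mmp14 and Timp2, or in the levels of single membranes, was not tested.

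**Figure D2:**
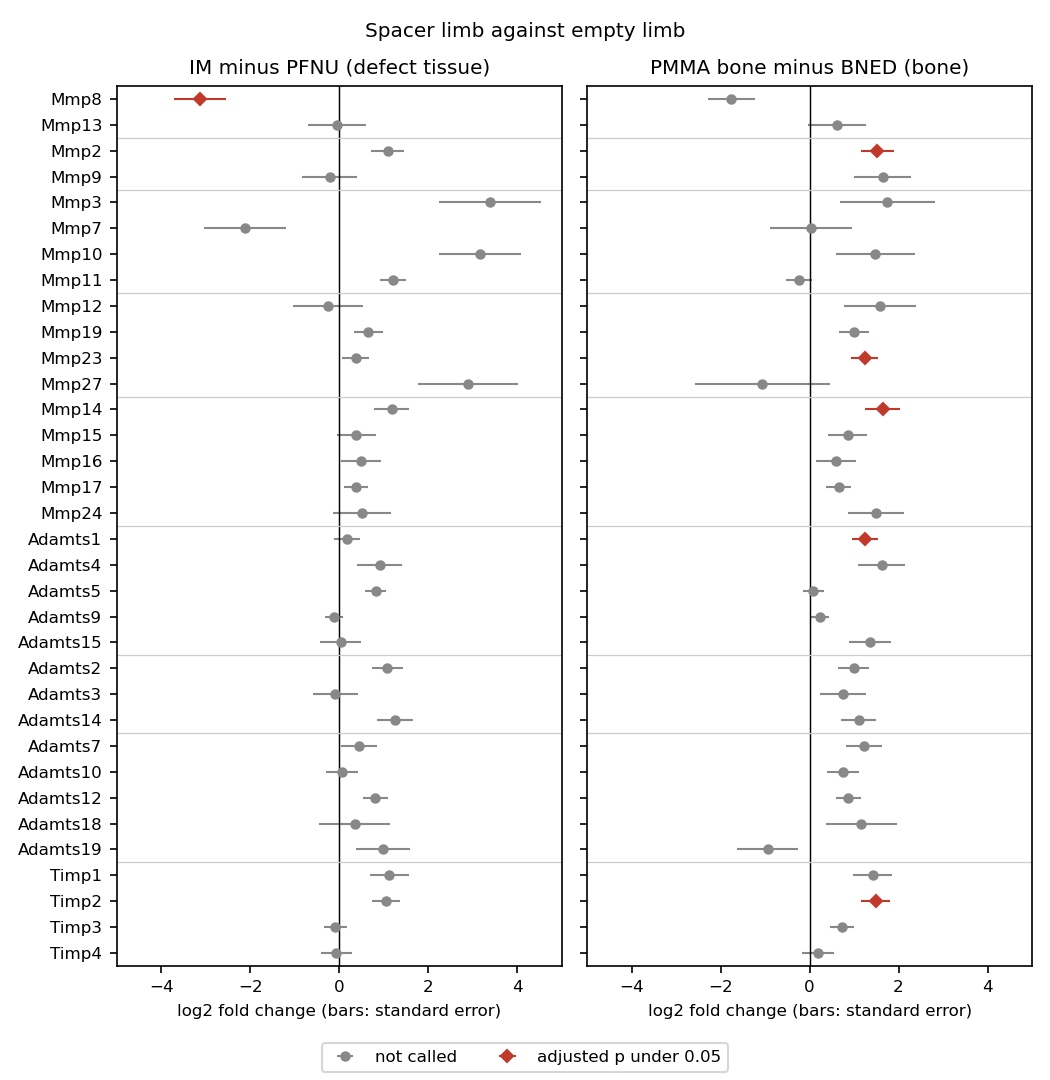
Log2 fold change with its standard error for the 34 tested genes, IM minus PFNU on the left and PMMA bone minus BNED on the right, ordered by role, with red diamonds for adjusted p under 0.05. Mmp8 is the single red point on the left, and Mmp2, Mmp23, Mmp14, Adamts1 and Timp2 are red on the right, where 30 of 34 values are positive.

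In bone, 5 members were higher next to the spacer than next to the empty defect and none was lower: Timp2, Adamts1, Mmp14, Mmp2 and Mmp23. They included all 3 genes of the cell-surface system described above, the proenzyme Mmp2, its activator Mmp14 and their partner Timp2. Called genes were 14.7% of the tested members and 4.91% of all genes tested, where 3.51% were called higher and 1.4% lower. Of the 34 differences 30 were positive, with a median of 0.99 on the log2 scale against -0.01 over all genes. In 15 members (44.1%) every PMMA bone library was above every BNED library, which 12.0% of all genes showed.

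Mmp2 stood at 713, 1678, 1339 and 1138 CPM in PMMA bone of rats 1 to 4 and at 376, 396, 417 and 502 CPM in BNED. Mmp14 stood at 436, 960.5, 963 and 682 CPM and 189, 209.7, 279.6 and 293 CPM, and Timp2 at 369, 921, 657 and 511 CPM and 179.9, 226, 226 and 248 CPM, respectively. In all 3 genes the groups did not overlap, PMMA bone of rat 1 was the lowest library of its group, and BNED varied little between rats. The change was 2.88-fold for Mmp2 (1.53 on the log2 scale, SE 0.37, adjusted p = 0.0341), 3.13-fold for Mmp14 (1.65 on the log2 scale, SE 0.39, adjusted p = 0.0338) and 2.79-fold for Timp2 (1.48 on the log2 scale, SE 0.32, adjusted p = 0.0254). Adamts1, a versican-cleaving protease, measured 39.1, 68.3, 64.7 and 47.3 CPM in PMMA bone and 21.01, 25.8, 19.5 and 26.2 CPM in BNED (1.25 on the log2 scale, SE 0.29, adjusted p = 0.0327). Mmp23, a small MMP held in the membrane by its amino terminus, measured 29.1, 61.03, 68.7 and 40.2 CPM in PMMA bone and 18.96, 20.1, 23.9 and 21.5 CPM in BNED (1.24 on the log2 scale, SE 0.31, adjusted p = 0.0357). Each of the 5 was higher in 4 of 4 rats. With rat as a block Mmp2 had an adjusted p of 0.0511 and the other 4 were called. All 5 calls were lost without PMMA bone of rat 2, 3 or 4 or BNED of rat 1 or 3. Only Timp2 was called without BNED of rat 2 or 4. Leaving out PMMA bone of rat 1, the library rich in erythroid markers, raised the number of called members to 14, of which 13 were higher and 1, Mmp8, was lower. How many of all genes were called in that fit is not given here, so the rise is not read as particular to the members.

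The 8 further members that were called higher without that library were Adamts2, Adamts4, Adamts7, Adamts12, Adamts15, Mmp19, Timp1 and Timp3. With all libraries, Adamts4 stood at 15.2, 37.7, 42.7 and 29.7 CPM in PMMA bone and 10.3, 9.54, 10.9 and 10.1 CPM in BNED (1.62 on the log2 scale, SE 0.52, adjusted p = 0.0828). Timp1 stood at 220.5, 336, 449 and 280.1 CPM and 98.8, 69.7, 139.9 and 172 CPM (1.42 on the log2 scale, SE 0.44, adjusted p = 0.0755). The groups did not overlap in either gene. Adamts2 measured 77.6, 143, 134 and 122 CPM in PMMA bone and 58.6, 44.2, 81.8 and 54.9 CPM in BNED, and Timp3 measured 46.3, 95.8, 73.2 and 72.4 CPM and 38.1, 61.8, 39.01 and 33.8 CPM. Both were higher in 4 of 4 rats but overlapped, with PMMA bone of rat 1 inside the BNED range (adjusted p = 0.106 and 0.116). Timp4 differed little, at 7.29, 9.201, 7.31 and 9.67 CPM and 6.54, 9.11, 6.25 and 7.52 CPM (0.19 on the log2 scale, SE 0.35, adjusted p = 0.782). Adamts5, the aggrecanase described above as most separated between the defect tissues, measured 8.64, 8.59, 11.7 and 9.69 CPM in PMMA bone and 7.85, 10.3, 8.55 and 9.67 CPM in BNED (0.09 on the log2 scale, SE 0.23, adjusted p = 0.8498).

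Mmp8 was the only member whose PMMA bone libraries all lay below BNED, which 7.05% of genes did. It stood at 35.9, 6.04, 12.7 and 11.6 CPM in PMMA bone and 46.6, 77.7, 58.2 and 40.7 CPM in BNED (-1.76 on the log2 scale, SE 0.54, adjusted p = 0.0694), and it was not called with all libraries. All 8 neutrophil markers had negative fold changes, 4 of them called, and summed to 223 to 522 CPM and 1138 to 1656 CPM in the respective groups. PMMA bone of rat 1 had the highest value of its group for Mmp8 and for the summed neutrophil markers (522 CPM). Singly, S100a8, S100a9, Elane, Mpo and Ltf were highest in that library. Camp and Lcn2 were lowest there, at 12.2 and 24.5 CPM, and Ngp was highest in rat 3. Mmp9 went the opposite way, with 1143, 1889, 3179.6 and 1323 CPM in PMMA bone and 418, 442, 671 and 882 CPM in BNED. The groups did not overlap, and the difference did not pass the threshold (1.64 on the log2 scale, SE 0.63, adjusted p = 0.135) with all libraries. Mmp9 was called without IM of rat 3, a library of neither group that enters through the shared estimate of the spread, and by DESeq2 (adjusted p = 0.0458), limma-voom (0.004999) and the fit of only the 8 libraries (0.0276). Mmp13 measured 3149.8, 2963, 4952 and 2416 CPM in PMMA bone and 1935, 1275, 2608 and 2945 CPM in BNED (0.62 on the log2 scale, SE 0.65, adjusted p = 0.583). The 5 osteoclast markers, none called, were all positive and summed to 7002 to 14082 CPM in PMMA bone and 2633 to 5147 in BNED. The 6 fibroblast markers were also all positive, 1 of them called, with sums of 8708 to 15713 CPM and 4131 to 5776 CPM. Skeletal muscle markers had negative values in 9 of 9 genes, 1 called, with the sums given above. All 6 B cell markers were negative, 3 of them called, with sums of 119 to 302 CPM in PMMA bone and 549.9 to 787 in BNED, and all 7 erythroid markers were negative, none called. All 7 osteoblast and osteocyte markers and all 5 tested chondrocyte markers were positive, none called. The part of these cell types in the changes of the 5 called members, Mmp8 and Mmp9 was not tested.

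Mmp3 and Mmp12 had one BNED library apart from the rest. Mmp3 stood at 23.9, 21.3, 36.3 and 21.98 CPM in PMMA bone and 0.917, 2.499, 2.95 and 24.5 CPM in BNED, and Mmp12 at 180.0, 101, 119 and 85.9 CPM and 4.32, 15.8, 30.3 and 112 CPM. In both genes BNED of rat 4 reached the level of bone next to the spacer, and the other 3 BNED libraries lay below all PMMA bone libraries. Neither difference was called (adjusted p = 0.334 for Mmp3 and 0.243 for Mmp12).

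**Figure D3:**
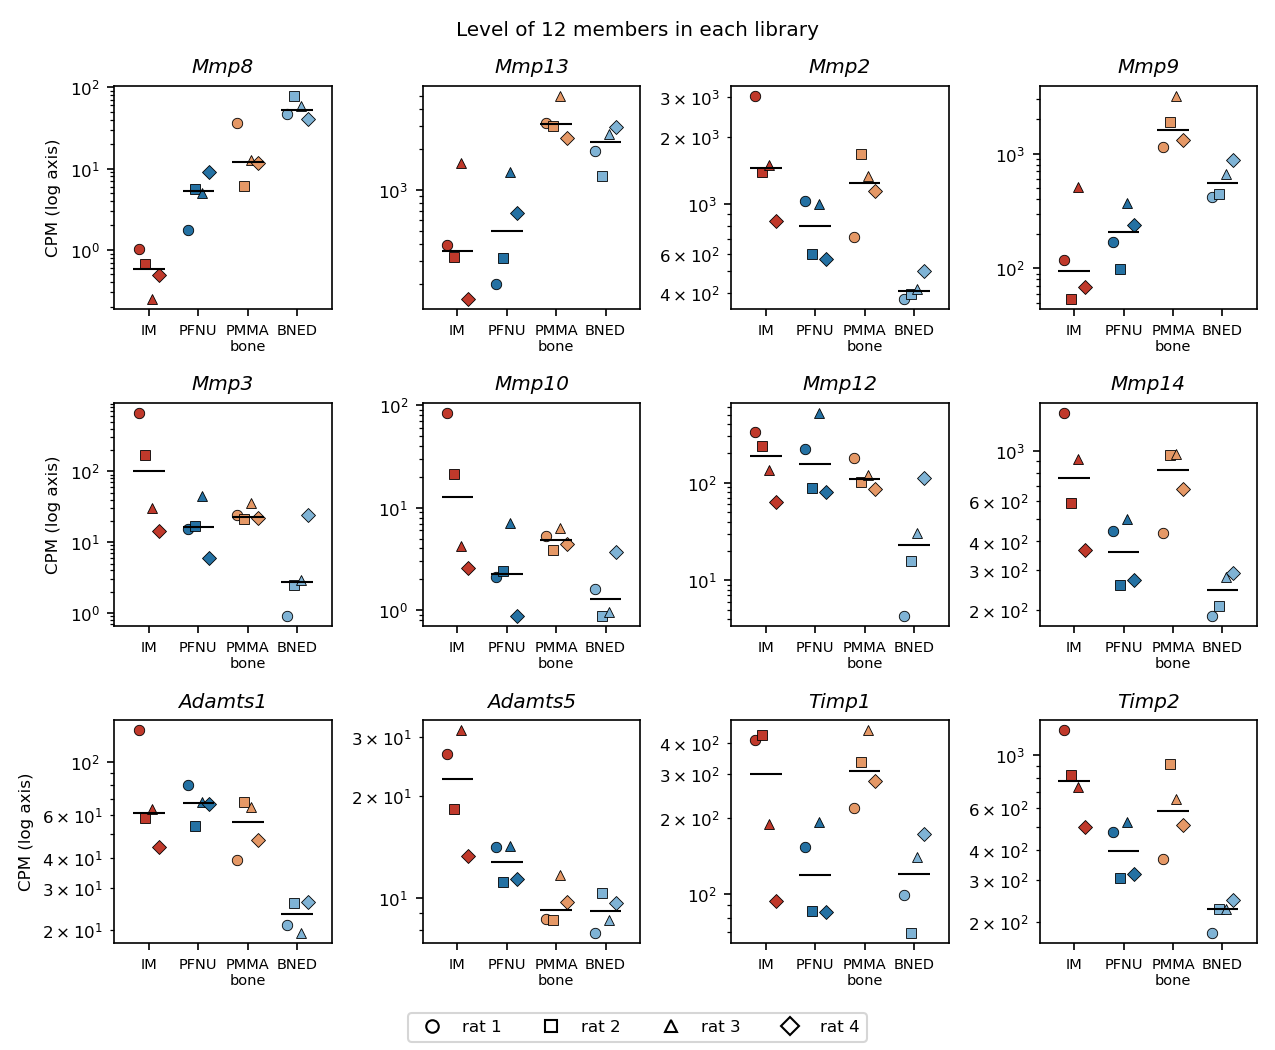
CPM of 12 members in each library on log axes, by group, with marker shape for the rat and a line at the group's median. In Mmp2, Mmp14, Adamts1 and Timp2 all PMMA bone points lie above all BNED points, and in Mmp8 the 4 IM points lie below all others.

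Whether the spacer was associated with a different change in defect tissue than in bone was tested as the difference between those 2 comparisons. No member was called, and no gene of the 12857 was (0.0%), by edgeR. Without adjustment 4 members had a p under 0.05, and the share of all genes at that level is not given here. Of the 34 differences 26 were negative (a lower value in defect tissue than in bone) and 8 positive, with a median of -0.46 on the log2 scale against 0.01 over all genes. DESeq2 called no member, and limma-voom called 1, Adamts1, whose difference was lower in defect tissue (adjusted p = 0.0429). By edgeR the value for Adamts1 was -1.08 (SE 0.41, adjusted p = 0.477). The value furthest from 0 relative to its error was that of Mmp11, which had a positive fold change in defect tissue (1.21) and a negative one in bone (-0.24), a difference of 1.44 (SE 0.40, adjusted p = 0.263). For the 5 members called in bone the difference ran from -1.08 in Adamts1 to -0.44 in Timp2 and -0.44 in Mmp2, so a call in bone alone does not show that these genes changed more in bone.

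Defect tissue and bone differed in many more members. In the spacer limb 16 of 34 (47.1%) were called between IM and PMMA bone, 9 higher and 7 lower in IM, against 22.2% of all genes (11.3% higher and 11.0% lower). The 9 higher members included Mmp27 and Adamts19, which passed the filter only through defect tissue. In the empty limb 13 of 34 (38.2%) were called between PFNU and BNED, 11 higher and 2 lower in PFNU, against 30.2% of all genes (1928 genes called higher and 1956, or 15.2%, called lower). In the spacer limb all libraries of IM lay above all of PMMA bone in 6 members (17.6%, against 7.75% of all genes) and below in 7 (20.6%, against 11.7%). Mmp27 and Adamts19 were among these 6, so the filter favoured this count. In the empty limb PFNU lay wholly above BNED in 13 members (38.2%, against 18.9%) and wholly below in 3 (8.82%, against 21.0%). Adamts19 was among these 13. The direction was the same in both limbs for 31 of the 34 (91.2%), and for 78.3% of all genes. Called higher in defect tissue in both limbs were Adamts12, Adamts15, Adamts19, Mmp15, Mmp17, Timp3 and Timp4, which were 77.8% of the spacer limb's higher calls and 63.6% of the empty limb's. These 7 were 20.6% of the members, against 7.12% of all genes. Adamts19 was among these 7, and its calls in both limbs carry the limit set by the filter. Called lower in both were Mmp8 and Mmp16, 28.6% and 100.0% of the lower calls, respectively, and 5.88% of the members, against 7.59% of all genes.

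Of the genes lower in defect tissue, Mmp8, Mmp9 and Mmp13 changed most in the spacer limb. Mmp8 levels, given above, did not overlap between defect tissue and bone in either limb, and the change was -4.76 on the log2 scale in the spacer limb (SE 0.63, adjusted p = 0.000333) and -3.38 in the empty limb (SE 0.57, adjusted p = 0.000768). Mmp9 and Mmp13 were called in the spacer limb, Mmp9 at -3.32 on the log2 scale, SE 0.68, adjusted p = 0.00454, and Mmp13 at -2.46 on the log2 scale, SE 0.68, adjusted p = 0.0201. Mmp13 lost its call without PMMA bone of rat 3. In the empty limb neither was called with all libraries and no block (Mmp9 at -1.46 on the log2 scale, SE 0.63, adjusted p = 0.0898, and Mmp13 at -1.78 on the log2 scale, SE 0.67, adjusted p = 0.0551). Both were called there with the rat block (adjusted p = 0.0206 and 0.0102), by DESeq2, by limma-voom and with only the 8 libraries, and Mmp13 also with the stricter filter. Without IM of rat 3 Mmp9 was called in the empty limb, and Mmp13 was called there without any one of IM of rat 3, IM of rat 4, PFNU of rat 3 or BNED of rat 2. Mmp16, a membrane-type MMP, stood at 30.5, 21.6, 35.9 and 8.23 CPM in IM and 9.19, 11.00, 32.5 and 15.9 CPM in PFNU, against 81.9, 67.7, 72.3 and 71.2 CPM in PMMA bone and 36.3, 24.3, 62.6 and 71.7 CPM in BNED. It fell by 1.61 on the log2 scale in the spacer limb (SE 0.46, adjusted p = 0.0224) and by 1.51 in the empty limb (SE 0.46, adjusted p = 0.0225). The spacer limb call was lost without PMMA bone of rat 1, and the empty limb call without any one of PFNU of rats 1, 2 and 4 or BNED of rats 3 and 4. Adamts3, Adamts9 and Adamts10 were also lower in IM than in PMMA bone, and fell by 1.70, 0.82 and 1.20 on the log2 scale (adjusted p = 0.0309, 0.0104 and 0.0301). Only Adamts9 of the 3 was called whichever library was left out. Adamts18, a protease of little known substrate, was not called in either limb (-2.32 on the log2 scale, SE 0.83, adjusted p = 0.05702 in the spacer limb, and -1.49 on the log2 scale, SE 0.81, adjusted p = 0.173 in the empty limb). Leaving out IM of rat 3 gave a call in both limbs (adjusted p = 0.000649 and 0.0318), with -4.42 on the log2 scale in the spacer limb, and so did the rat block (adjusted p = 0.00336 and 0.03502). RLE factors and DESeq2 also called it in the spacer limb, and limma-voom and the fit of only the 8 libraries in the empty limb. Osteoclast markers were lower in defect tissue as well, 4 of 5 called in the spacer limb and 2 of 5 in the empty limb, and so were neutrophil markers, 7 of 8 called in each limb. All 7 erythroid and all 6 B cell markers were called lower in defect tissue in both limbs. All 7 osteoblast and osteocyte markers were negative in both limbs, with 2 called in the spacer limb and 1 in the empty limb. The 5 tested chondrocyte markers were negative in both limbs too, with 1 called in the spacer limb and 4 in the empty limb. The part of these cell types in the lower members was not tested.

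Adamts15 and Adamts19 were among the 3 largest called increases of defect tissue over bone in each limb, and Mmp7 was among them in the empty limb. The rank of Adamts19 is limited by the filter, which it passed only through defect tissue. Adamts15, a proteoglycan-cleaving protease, stood at 178, 61.9, 226 and 64.6 CPM in IM and 199.9, 124, 122 and 73.1 CPM in PFNU, and at 16.4, 61.9, 29.6 and 32.4 CPM in PMMA bone and 10.03, 21.01, 10.7 and 12.9 CPM in BNED. It was 3.77-fold higher in the spacer limb (1.92 on the log2 scale, SE 0.48, adjusted p = 0.0126), where PMMA bone of rat 2 reached the lowest membrane value, and 9.48-fold higher in the empty limb (3.24 on the log2 scale, SE 0.51, adjusted p = 0.000463), where the groups did not overlap. Adamts19 was low throughout, at 0.403, 2.71, 3.56 and 2.23 CPM in IM, 1.43, 1.19, 0.831 and 1.07 CPM in PFNU, 0, 0.119, 0.0603 and 0.1698 CPM in PMMA bone and 0.1903, 0.199, 0.162 and 0.153 CPM in BNED. Its log2 fold change was 4.58 in the spacer limb (SE 0.72, adjusted p = 0.000987) and 2.66 in the empty limb (SE 0.66, adjusted p = 0.00784). For this gene 0 PMMA bone and 3 BNED libraries passed the filter's cutoff, fewer than the 4 needed. Its differences between defect tissue and bone were therefore in part set by the filter. Mmp27 was read 5, 265, 62 and 39 times in IM, 14, 17, 11 and 0 times in PFNU, 0, 0, 0 and 5 times in PMMA bone and 4, 1, 5 and 0 times in BNED. Its fitted log2 fold change in the spacer limb (6.20 on the log2 scale, SE 1.41, adjusted p = 0.00769) rests on these few bone reads and on the filter, and is not ranked here.

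Of the other genes called higher in both limbs, Mmp15 and Mmp17, both membrane-type MMPs, rose by 1.70 and 1.04 on the log2 scale in the spacer limb (adjusted p = 0.0158 and 0.0175) and by 2.18 and 1.32 in the empty limb (adjusted p = 0.00282 and 0.00321). Adamts12, which cleaves cartilage oligomeric matrix protein, rose by 1.13 and 1.19 (adjusted p = 0.0126 and 0.00648), and its levels did not overlap between defect tissue and bone in either limb. In the spacer limb Mmp15 and Mmp17 lost their calls without IM of rat 4, and Mmp17 also without PMMA bone of rat 1.

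Mmp7 was 8.66-fold higher in PFNU than in BNED (3.11 on the log2 scale, SE 0.97, adjusted p = 0.0256), with BNED at 0.104, 0.5397, 0.708 and 1.42 CPM and PMMA bone at 0.631, 1.05, 0.738 and 0.382 CPM. The groups did not overlap, and the call was lost without PFNU of rat 3 or BNED of rat 1, 2 or 3. Mmp12 was also higher in PFNU (2.49 on the log2 scale, SE 0.83, adjusted p = 0.03498), a call that was lost with the rat block (adjusted p = 0.0913) and without any one of PFNU of rats 1 and 3 or BNED of rats 1, 2 and 3. In the spacer limb neither passed the threshold (adjusted p = 0.464 and 0.574). Adamts1 rose in the empty limb (1.54 on the log2 scale, SE 0.29, adjusted p = 0.00168) and Adamts5 in the spacer limb (1.22 on the log2 scale, SE 0.23, adjusted p = 0.00354). Their values in the other limb were 0.46 for Adamts1 (adjusted p = 0.265) and 0.48 for Adamts5 (adjusted p = 0.122), and the difference between limbs, which is the same quantity as the tested difference between tissues, was not called for either gene.

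Of the inhibitors, 2 were called in the spacer limb and 3 in the empty limb. Timp3 and Timp4 were higher in defect tissue in both limbs: Timp3 by 1.01 and 1.84 on the log2 scale (SE 0.27 and 0.27, adjusted p = 0.0163 and 0.000365 in the spacer and empty limb), and Timp4 by 1.69 and 1.95 (SE 0.36 and 0.37, adjusted p = 0.00589 and 0.00145). The Timp3 call in the spacer limb was lost without IM of rat 4. Timp2 was not called in the spacer limb (adjusted p = 0.3199) and was called higher in the empty limb (0.89 on the log2 scale, SE 0.31, adjusted p = 0.0441), a call lost with the rat block (adjusted p = 0.0688) and without any one of 9 libraries: IM 3, PFNU 1 and 3, PMMA bone 3 and 4, and all 4 BNED. Timp1 was called in neither limb (adjusted p = 0.779 and 0.878). Most skeletal muscle markers were higher in defect tissue in the same comparisons, 7 of 9 called higher and 1 lower in the spacer limb and 6 of 9 called higher in the empty limb. All 6 fibroblast markers were positive in both limbs, with 2 called higher in each. Of 6 macrophage markers, 4 were positive in the spacer limb, 2 of them called, and 3 in the empty limb, with 0 called. The part of these cell types in the higher members was not tested. Timp1, Timp3 and Timp4 overlap the synapsin genes Syn1, Syn3 and Syn2 in the GRCr8 annotation, and Mmp11 overlaps Chchd10. The strand setting of the counting is not given in the sources used here, and overlap of exons was not examined. Whether reads of one gene of a pair were counted for the other could therefore not be checked.

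**Figure D4:**
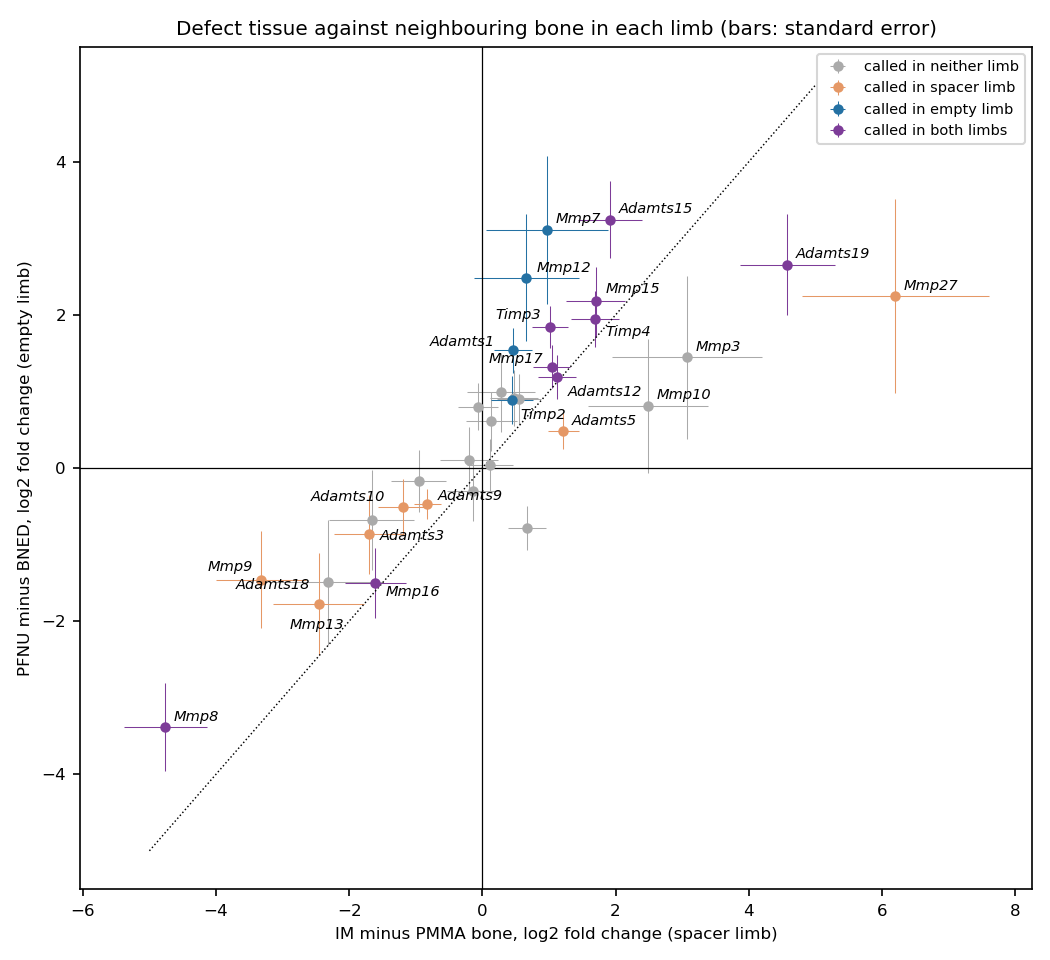
Log2 fold change of defect tissue against neighbouring bone for the 34 tested genes, spacer limb on the horizontal axis and empty limb on the vertical, with standard errors as bars, equality as a dotted line and colour for the limb in which a gene was called. Points lie in the upper right or lower left quadrant for 31 genes, with Mmp8 furthest to the lower left and Mmp27, whose value the filter set in part, furthest to the right.

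MMP reads summed to 1764 to 6346 CPM in IM, 1538 to 4027 in PFNU, 5855 to 10853 in PMMA bone and 2522 to 4952 in BNED. TIMP reads summed to 842 to 1800.3 CPM in IM, 558 to 876 in PFNU, 643 to 1362 in PMMA bone and 323 to 461 in BNED. There were 3.53, 2.09, 4.59 and 2.09 MMP reads per TIMP read in IM of rats 1 to 4 and 2.64, 2.65, 4.598 and 3.599 in PFNU. In bone the ratio was 9.104, 5.77, 9.15 and 6.74 next to the spacer and 9.505, 6.88, 10.2 and 10.7 next to the empty defect, above all 8 defect libraries. Without Mmp9 and Mmp13, a choice made after the values were seen, the ratio was 3.24, 1.83, 2.64 and 1.83 in IM, 2.21, 1.94, 2.63 and 1.96 in PFNU, 2.43, 2.21, 2.29 and 2.45 in PMMA bone and 2.23, 2.197, 2.24 and 2.44 in BNED, and the groups overlapped. These ratios are of reads, which depend on transcript length, and do not measure protein or activity.

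Other genes of extracellular proteolysis were followed in 7 lists. Over these lists (plasminogen activators and their inhibitors, MMP activators and non-TIMP inhibitors, ADAMTS-like proteins, procollagen C-proteinases, ADAM proteases, cathepsins with cystatin C, and proteoglycan substrates) no gene was called by edgeR between IM and PFNU. Of the 41 genes tested, 15 had an unadjusted p under 0.05, and the share of all genes at that level is not given here. DESeq2 called 4 of the 41, among them Plat, Serpinf1 and Furin, and limma-voom called 0, as it did of all genes. In bone, 6 of the 41 genes were called higher next to the spacer, where 3.51% of all genes were. The difference between the 2 comparisons was called for 0 of the 41 by edgeR, with 1 at an unadjusted p under 0.05, and for 1, Tll1, by both DESeq2 and limma-voom. Of 8 MMP activators and inhibitors 2 were called higher, Reck, a membrane-anchored MMP inhibitor (0.91 on the log2 scale, SE 0.20, adjusted p = 0.02903), and Bsg, an inducer of MMP synthesis (0.81 on the log2 scale, SE 0.19, adjusted p = 0.0313). Of 4 procollagen C-proteinases and enhancers 2 were called higher, the protease Tll1 (1.78 on the log2 scale, SE 0.36, adjusted p = 0.02297) and the enhancer Pcolce (1.19 on the log2 scale, SE 0.31, adjusted p = 0.0397, and 0.0511 with the rat block). Of 5 ADAM proteases 1 was called, Adam15 (1.21 on the log2 scale, SE 0.27, adjusted p = 0.02903). None of the 3 ADAMTS-like genes, the 10 genes of cathepsins and cystatin C or the 2 proteoglycan genes was called, and no gene of the 7 lists was called lower. DESeq2 called 13 and limma-voom 28 of the 41 genes in bone. Of all genes there, DESeq2 called 950 higher and 568 lower. Limma-voom called 3175 higher and 3069 lower of 12857. All 6 calls were lost without PMMA bone of rat 2, 3 or 4 or BNED of rat 1 or 3.

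Between defect tissue and bone, the plasminogen activators Plat and Plau were called higher in both limbs. Plat rose by 1.49 and 1.43 on the log2 scale (adjusted p = 0.00754 and 0.005804 in the spacer and empty limb) and Plau by 1.34 and 1.39 (adjusted p = 0.00633 and 0.00293). Adam9 also rose in both, by 0.99 and 1.09 (adjusted p = 0.00199 and 0.000497). Of the 10 tested genes of the list of cathepsins and their inhibitor cystatin C, 3 were called lower in the spacer limb (Ctsg, Ctsk and Ctsz) and 2 in the empty limb (Ctsg and Ctsk), with 1 cathepsin called higher in each (Ctsl1 and Ctsd, respectively). Ctsg, the cathepsin of neutrophil granules, averaged 0.1001 ± 0.0934 CPM in IM and 0.574 ± 0.691 CPM in PFNU, against 9.75 ± 8.16 CPM in PMMA bone and 44.9 ± 19.2 CPM in BNED (SD over 4 libraries). It fell by 6.55 and 6.27 on the log2 scale (adjusted p = 0.000715 and 0.000296). Ctsk, the main collagen-degrading cathepsin of osteoclasts, fell by 2.40 in the spacer limb (SE 0.52, adjusted p = 0.00592) and by 1.37 in the empty limb (SE 0.50, adjusted p = 0.0486), the latter call being lost without any one of 10 libraries.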

How the data were processed

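Counts were taken as deposited by the authors: whole reads per gene symbol in 16 libraries, not normalised. Per the labels' protocols, RNA was extracted with Trizol, treated with DNase and made into stranded TruSeq poly-A libraries with 12 PCR cycles, sequenced as 100-cycle read pairs. Tools listed in the submitters' processing notes are Bowtie2 2.2.1, TopHat2 2.0.13, FastQC 0.11.3 and DESeq2, and the build is rn5. The counting program, annotation and strand setting are not given in the sources used here, and no genome of that build was used.

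The counts were fitted with edgeR 4.0.16 (quasi-likelihood F-test, TMM factors, filterByExpr) in R 4.3.3, with a mean for each group, so that the 16 libraries shared one estimate of the spread. P-values were adjusted by Benjamini-Hochberg over 12857 genes within each comparison, and every adjusted p is from this fit unless another is named. The standard error was the size of the log2 fold change divided by the square root of F. Alternatives were RLE factors, no filter, a filter of 1 CPM in 4 libraries, DESeq2 1.42.0, limma-voom with quality weights (limma 3.58.1), a rat block, only the 8 libraries compared, and leaving out each library. The fit was checked on simulated counts. Of 2-fold changes it recovered 25.0% for IM against PFNU, 28.3% for PMMA bone against BNED and 7.07% for the difference between these comparisons. Of 4-fold changes it recovered 77.8%, 74.0% and 62.0%, respectively. The lack of a call therefore does not show the lack of a change of such size. The labels place the same 4 rats in every group, so rats pair the samples. Correlations of same-rat deviations from the group means ran from -0.345 to 0.496 (median 0.0683, 24 pairs). Replicates came from separate rats and differed by far more than counting noise (lowest chi-square per degree of freedom 80.6).

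Named with all values were the members called between limbs and a panel of 15, together with the 3 largest called changes in each direction between defect tissue and bone. The others are given by role, and listed genes outside the family by the largest called changes. The members and the 16 lists of other genes (104 of 122 entries in the table) were chosen with earlier results of these data known. Their order on the chromosome, overlaps and promoters came from RefSeq tables of build GRCr8, which is not the build of the counts. Some results for genes outside the family are not reported here.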

Additional observations from a re-analysis of the deposited data

Results flagged for a closer look

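In 11 of 136 group-by-gene checks over the 34 tested members, the highest or lowest of 4 libraries lay far from the other 3 (Dixon's test at the 95% level), where chance gives about 1 in 20. Of these, 3 concerned the membrane of rat 3: Mmp13 at 1584 CPM (the others 156 to 390.3), Mmp9 at 512.9 CPM (54.1 to 118.5) and Adamts18 at 26.8 CPM (0.883 to 3.02). The osteoclast and the osteoblast and osteocyte markers were also highest in this membrane, at 3619 and 3365 CPM, and their part was not tested. Mmp7 stood apart in both defect tissues, at 4.28 CPM in IM of rat 2 (0.237 to 0.616) and 15.8 CPM in PFNU of rat 3 (2.18 to 2.94). Mmp3 stood apart in both bones, at 36.3 CPM in PMMA bone of rat 3 (21.3 to 23.9) and 24.5 CPM in BNED of rat 4 (0.917 to 2.95). Adamts10 reached 209.5 CPM in BNED of rat 3 (137 to 144). Lower than the rest were Adamts9 in PMMA bone of rat 2, at 94.7 CPM (117 to 122), and Mmp11 in PFNU of rat 4, at 4.55 CPM (5.71 to 5.84). Mmp27 was at 0.0708 CPM in PMMA bone of rat 4, which is 5 reads, and at 0 in the other 3 libraries.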

How the results depend on the processing

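The number of members called depended on the test and on single libraries. For fits that left out a library, counts over all genes are not given here. Changes in the members' count under those fits are therefore not read as particular to the members. Between IM and PFNU the count of 1 became 5 with DESeq2 (4 higher, 1 lower) and 0 with limma-voom or with only the 8 libraries compared. Of all genes, DESeq2 called 322 higher and 241 lower, and the other 2 fits called 0 in either direction. Leaving out single libraries gave 0 to 4, with 0 without IM 2 or PFNU 2, 3 or 4, 2 without IM 3 or PMMA bone 1, and 4 without IM 4. Between PMMA bone and BNED the count of 5 became 13 with DESeq2, 25 with limma-voom and 15 with only the 8 libraries, and ran from 0 to 14 when single libraries were left out. Over all genes, 451 were called higher and 180 lower in the main fit. These became 950 and 568 with DESeq2 and 1149 and 618 with only the 8 libraries. Limma-voom called 3175 higher and 3069 lower of 12857 genes, so its count of members stands beside a large share of all genes. For the difference between the 2 comparisons the count of 0 became 1 with limma-voom and ran from 0 to 0 when single libraries were left out. Of all genes, limma-voom called 89 higher and 129 lower for this difference. Between IM and PMMA bone 16 became 6 with only the 8 libraries and ran from 13 to 19, and between PFNU and BNED 13 became 24 with limma-voom, 20 with only the 8 libraries and ran from 9 to 18. All genes called between IM and PMMA bone went from 1447 higher and 1413 lower to 410 and 498 with only the 8 libraries. Between PFNU and BNED they went from 1928 and 1956 to 3438 and 3282 with limma-voom. With only the 8 libraries they were 2503 and 2940. In this paired design, the rat block gave 0 members for IM against PFNU, 4 for PMMA bone against BNED, 0 for the difference, 17 for IM against PMMA bone and 14 for PFNU against BNED. In the same order, the block called 10, 308, 0, 1287 and 1759 of all genes higher. It called 37, 146, 0, 1487 and 1975 lower. No called member changed direction under any alternative. RLE factors moved the all-gene split between IM and PFNU from 47 higher and 64 lower to 27 and 62, with the median of all genes at -0.01, and left the members' count at 1. For genes with few reads, such as Mmp27, depth limits the size of any difference.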
